A study of Mus musculus with 6 samples.

Results

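The proteasome genes were taken by symbol: every gene whose only platform symbol begins with Psma, Psmb, Psmc, Psmd, Psme, Psmf or Psmg and a digit, without Psmb8 and Psmb9. That gave 48 genes of 19938 with 1 symbol, read from 54 probe sets, and a gene with several was read from its brightest. Of the 48, 17 encode the 20S core, 17 the 19S cap and 12 activators, an inhibitor or assembly chaperones, while 2 are related by name. All 48 lay above the filter on dim probe sets, so each was tested. Total RNA from the left ventricle of male C57BL/6 mice had been hybridised to 6 expression arrays. Of these, 3 came from mice lacking MURC, the muscle protein of caveolae encoded by Cavin4, labelled as 11, 11 and 13 weeks of age. The other 3 came from wild-type mice labelled as 13, 13 and 12 weeks. The sources used here do not give how the MURC allele was made. Nor do the labels say whether samples came from separate animals, so p-values reflect only the spread among these arrays, which may be technical.

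The proteasome degrades proteins tagged with ubiquitin. Its 20S core is a stack of outer rings of alpha subunits, which gate the entrance, around inner rings of beta subunits, of which some cut the protein chain. The 19S cap has a base, where a ring of ATPases unfolds the substrate and pushes it into the core, and a lid, which removes ubiquitin. Dedicated chaperones build the core and the base, and other activators such as PA28 and PA200 can take the place of the cap. In heart muscle the system clears damaged and surplus contractile proteins.

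The arrays followed their labels at the targeted gene: Cavin4 measured 5.38, 5.74 and 5.59 on the knockout arrays against 8.75, 8.62 and 8.07 on the wild-type arrays. All signals are on the log2 scale of the deposited table. The cardiomyocyte markers averaged 12.40 to 12.45 on every array, with none of 8 at an unadjusted p under 0.05 in limma. Knockout replicate 2 stood apart by genes of the atrium, since it measured 8.67 for Myl4 and 7.22 for Myl7, where the other 5 arrays ranged from 5.41 to 5.61 and from 3.61 to 4.11. Counts of proteasome genes are therefore also given without it. Smooth muscle and pericyte markers averaged 7.48 to 7.49 in the knockout and 7.27 to 7.40 in the wild type. Of these 6 markers, 2 were higher at an unadjusted p under 0.05 in limma, where 2.50% of tested genes with 1 symbol were. They were the smooth muscle genes Tagln (0.42, dim at 4.74 to 5.53) and Myh11 (0.35). Acta2, Rgs5, Cspg4 and Pdgfrb differed by 0.10, 0.09, 0.05 and -0.15 and overlapped between genotypes. The part of these markers in the results, and that of the atrial RNA beyond the counts without that array, was not tested. In tissue RNA, fewer cells of a type and less RNA per cell cannot be told apart.

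No proteasome gene passed the adjusted threshold of 0.05 (limma with Benjamini-Hochberg adjustment over 24898 probe sets, smallest adjusted p 0.152). In that test 0.00654% of named genes passed, namely Cavin4. Its own adjusted p was 0.012 in limma, and 0.0754 with the replicate block, 0.0646, 0.118 and 0.0777 without knockout replicates 1 and 3 and wild-type replicate 1. Below that threshold, genes of the core and the cap measured mostly higher in the knockout and the activators and chaperones were divided. At an unadjusted p under 0.05, 7 of the 48 were higher (14.6%), against 2.50% of 15298 named genes, and 5 were lower (10.4%), against 8.97%. The share of lower genes was thus near that of named genes at large. Without knockout replicate 2 the counts were 8 higher, where named genes gave 2.17%, and 4 lower, where they gave 7.28%. After quantile normalization the split was 11 higher and 3 lower, against 4.63% and 6.81% of named genes. Median centring gave 7 and 3, against 3.44% and 7.03%. The fit without an intensity trend gave 6 and 3, against 2.33% and 8.14%, and the replicate block 8 and 5, against 2.21% and 7.99%. With age as a covariate, since the labelled ages differ between genotypes, 6 were higher and 7 lower, against 2.71% and 8.16%. Among the 16 alternatives, lower genes outnumbered higher ones in that setting alone. Single arrays moved these counts. Without wild-type replicate 1 they were 12 and 6, against 3.82% and 6.06%, and without wild-type replicate 3 they were 4 and 4, against 2.03% and 9.14%. Without knockout replicate 3 they were 5 and 2, against 1.57% and 5.36%, and without wild-type replicate 2 they were 6 and 3, against 1.84% and 7.80%. Without knockout replicate 1 they were 5 and 4, against 1.74% and 6.76%. With only annotated probe sets in the test, 2.01% of these passed the adjusted threshold and still no proteasome gene did.

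Values did not overlap between genotypes at 10 genes that were higher in the knockout (20.8%), against 4.64% of named genes, and at 4 that were lower (8.33%), against 14.1%. By the sign of the difference alone, 32 of 48 were higher, against 36.3% of named genes, and 15 lower, against 62.7%, and Psmc3ip was at 0.00. The median difference, knockout minus wild type, was 0.063 over the 48 genes, -0.043 over named genes and -0.05 over the 2780 named genes with a mean signal of at least 7.5, a level that most of the core and cap genes exceed. In the deposited values, most of the members thus lay on the opposite side of 0 from most named genes, by differences of at most 0.33. Where 0 falls depends on the scaling. The median difference over probe sets was -0.037 as deposited, -0.017 after median centring and -0.008 after quantile normalization. Under those 2 scalings 33 and 34 of the 48 members were higher. The shares of named genes by sign are given for the deposited values only.

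**Figure D1:**
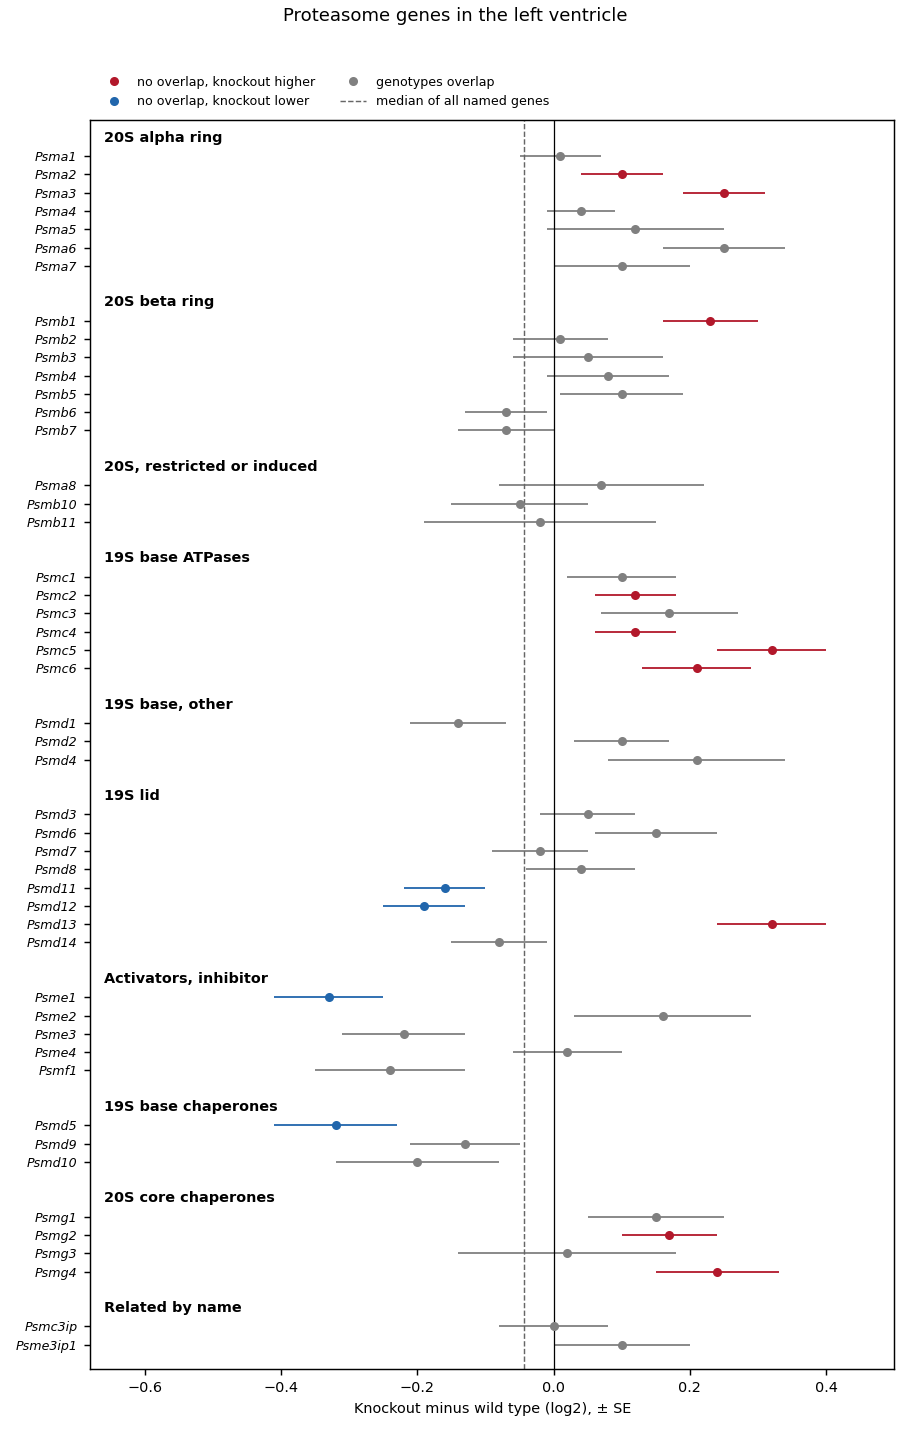
Knockout minus wild type difference in log2 signal of the 48 proteasome genes (points, with the standard error of the limma fit), grouped by role; red and blue mark genes whose 3 knockout values all lie above or below the 3 wild-type values, and the dashed line is the median of named genes, at -0.043. All 6 ATPases lie to the right of 0 and all 3 base chaperones to the left.

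Sequences upstream of these genes were read from the RefSeq promoter windows of GRCm38.p6, which held 40 of the 48 members. Psma8, Psmb1, Psmb2, Psmb7, Psmc3, Psmd3, Psmd7 and Psmg2 had no entry. Each window runs from 250 bases before the annotated start of a gene to 50 after it, and was searched on both strands. The first motif was TGACNNNGC, the core of the antioxidant response element, which NRF1 and NRF2 are known to bind and through which NRF1 is known to drive proteasome genes. It lay in 6 of the 40 genes (15%) and in 14% of all genes with a window. The second was a core of interferon response elements (GAAA, any 2 bases and GAAA again), chosen because PA28 and some core subunits are known to be induced by interferon. It lay in 5 of the 40 (12.5%) and in 3.99% of all genes. Among the genes behind that choice, it lay at Psme1 (PA28 alpha) and not at Psme2 (PA28 beta) or the core gene Psmb10. The plain CCAAT box lay in 15 of the 40 (37.5%) and in 41.1% of all genes, and no matches of different motifs overlapped in a member. A match is a description of the letters and not a bound site.

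The matches of the first motif are shown because genes that carry it differed in direction. Each is written along the gene, 5′ to 3′, with the motif in capitals, so that a match on the other strand reads GCNNNGTCA. Positions count from the annotated start.
Psmb5, chr14:54618026-54618050, minus strand, motif at -47 to -39: tgaagttgTGACGTCGCggcgttgc
Psmb6, chr11:70525340-70525364, plus strand, motif at -9 to -1: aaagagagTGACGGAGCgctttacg
Psmc6, chr14:45329589-45329613, plus strand, motif at -227 to -219: agccagtaGCTAAGTCAggcattgc
Psmd12, chr11:107479278-107479297, plus strand, motif at -247 to -239: tctGCTGTGTCAcatttgcc
Psmd9, chr5:123228151-123228175, plus strand, motif at -31 to -23: ctagccggTGACCCCGCccacttcc
Psme4, chr11:30771760-30771784, plus strand, motif at -7 to 2: ctgcggctGCAGCGTCAccagaaga
Among these 6, Psmc6 measured 0.21 higher and Psmd12 -0.19, both at an unadjusted limma p under 0.05. The differences of Psmb5, Psmb6, Psmd9 and Psme4 were 0.10, -0.07, -0.13 and 0.02.

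The 250 bases before the start of Psmc6 and of Psmd12 are shown whole, with the same motif in capitals, since these genes share the motif near the far end of the window and measured on opposite sides of the wild type.
Psmc6, chr14:45329574-45329823, plus strand: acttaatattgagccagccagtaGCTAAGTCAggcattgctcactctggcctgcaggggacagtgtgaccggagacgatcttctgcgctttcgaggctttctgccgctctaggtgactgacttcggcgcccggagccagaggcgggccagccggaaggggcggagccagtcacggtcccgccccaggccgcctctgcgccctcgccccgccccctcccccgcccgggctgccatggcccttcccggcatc
Psmd12, chr11:107479278-107479527, plus strand: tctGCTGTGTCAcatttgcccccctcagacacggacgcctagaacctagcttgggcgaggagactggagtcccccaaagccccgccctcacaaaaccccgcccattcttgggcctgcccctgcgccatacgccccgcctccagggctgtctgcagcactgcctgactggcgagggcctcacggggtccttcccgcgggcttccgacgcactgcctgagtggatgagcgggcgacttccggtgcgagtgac

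The interferon core is shown in the same way, with its letters in capitals, because it occurs at Psme1, the member that measured lowest against the wild type, and at Psmg4, which measured higher.
Psmb3, chr11:97703263-97703288, plus strand, motif at -163 to -154: cagtgactTTTCACTTTCcgctttcc
Psmd4, chr3:95042677-95042702, minus strand, motif at -80 to -71: aaccaaccTTTCCATTTCtgtggcgc
Psmd9, chr5:123228023-123228048, plus strand, motif at -159 to -150: gacagaatGAAAAAGAAAggaatgaa
Psme1, chr14:55578495-55578520, plus strand, motif at 10 to 19: agctgtgcTTTCGCTTTCccttcccg
Psmg4, chr13:34162971-34162996, plus strand, motif at 16 to 25: gcgcatctGAAAGTGAAAgagcgttc

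In the 20S core, 13 of 17 genes measured higher in the knockout and 4 lower, with a median difference of 0.07. At an unadjusted p under 0.05, 3 were higher (17.6%) and 0 lower, where named genes gave 2.50% and 8.97%. These counts read Psma5 as higher, from its brightest probe set. Its other probe set measured -0.28, at an unadjusted p of 0.0436 in limma. The median of the class was 0.02, 0.03 and 0.04 without wild-type replicate 2, knockout replicate 3 and wild-type replicate 3, and 0.12 and 0.11 without knockout replicate 2 and wild-type replicate 1. Read from the brightest probe set, the differences of the 7 genes of the alpha ring, which forms the gate, ran from 0.01 for Psma1 to 0.25 for Psma3 and Psma6. With the mean of the probe sets of a gene, 6 were higher and 1, Psma5, was lower. As a mean over the 7 genes, the knockout arrays lay 0.14, 0.08 and 0.16 above the wild-type mean and the wild-type arrays at 0.10, -0.09 and -0.01. Wild-type replicate 1 therefore lay among the knockout arrays for this ring. The median of the 7 was 0.10 with all arrays, 0.21 without wild-type replicate 1 and 0.02 without wild-type replicate 2.

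Psma3, a subunit of the alpha ring, separated the genotypes most clearly within the core. It measured 9.41, 9.35 and 9.51 in the knockout against 9.22, 9.16 and 9.14 in the wild type. Every knockout array lay above every wild-type array, and the difference was 0.25 (SE 0.06), or 1.19-fold, with an unadjusted p of 0.00445 and an adjusted p of 0.154 in limma. Its other 2 probe sets, which list the same accessions and may therefore read the same transcript, measured 0.26 and 0.21 higher, also without overlap. Psma6 measured 8.54, 8.41 and 8.55 against 8.42, 8.13 and 8.20, 0.25 higher (SE 0.09, unadjusted p = 0.0247, adjusted p = 0.289 in limma). Here wild-type replicate 1 overlapped the lowest knockout array, and the unadjusted p was 0.0879 without wild-type replicate 2. Psma2 measured 8.28, 8.18 and 8.24 against 8.10, 8.14 and 8.17, without overlap but only 0.10 higher (adjusted p = 0.542 in limma).

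The remaining alpha genes overlapped between genotypes. Psma4, among the core genes with the brightest probe sets, measured 9.36, 9.33 and 9.28 in the knockout against 9.31, 9.23 and 9.30 in the wild type. Psma7 differed by 0.10, with wild-type replicate 1 at 8.63 above all other arrays, which ranged from 8.26 to 8.57. The direction for Psma5 depended on the probe set. The one with the higher mean measured 0.12 higher, and the other, with different accessions, measured -0.28 (unadjusted p = 0.0436, adjusted p = 0.35 in limma). With the mean of its probe sets Psma5 measured -0.08, so no direction is given for it.

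The beta ring holds the cutting sites. Psmb1, a beta subunit without one, measured 9.02, 8.85 and 9.02 in the knockout against 8.73, 8.76 and 8.71 in the wild type. The groups did not overlap, and the difference was 0.23 (SE 0.07), or 1.17-fold, with an unadjusted p of 0.00938 and an adjusted p of 0.204 in limma. The 3 catalytic genes showed no common direction. Psmb5, the chymotrypsin-like subunit, measured 8.04, 7.99 and 8.15 against 8.04, 8.07 and 7.78, with a difference of 0.10. Psmb6, the caspase-like subunit, measured 9.70, 9.67 and 9.65 against 9.84, 9.69 and 9.70, with a difference of -0.07. Psmb7, the trypsin-like subunit, also differed by -0.07, and the values of all 3 overlapped. The structural genes Psmb2, Psmb3 and Psmb4 differed by 0.01, 0.05 and 0.08, within the spread of the arrays.

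Subunits made in other tissues or under interferon differed little. Psmb10, an interferon-induced catalytic subunit, measured 7.33, 7.10 and 7.04 in the knockout against 7.29, 7.21 and 7.11 in the wild type, a difference of -0.05 (SE 0.10). The thymus subunit gene Psmb11 ranged from 3.92 to 4.47 and the testis subunit gene Psma8 from 3.30 to 3.68, near the filter at 3.448, and both overlapped. In RefSeq no gene lay wholly between Psmb5 and Psmb11, and genes that overlap either of them were not counted.

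**Figure D2:**
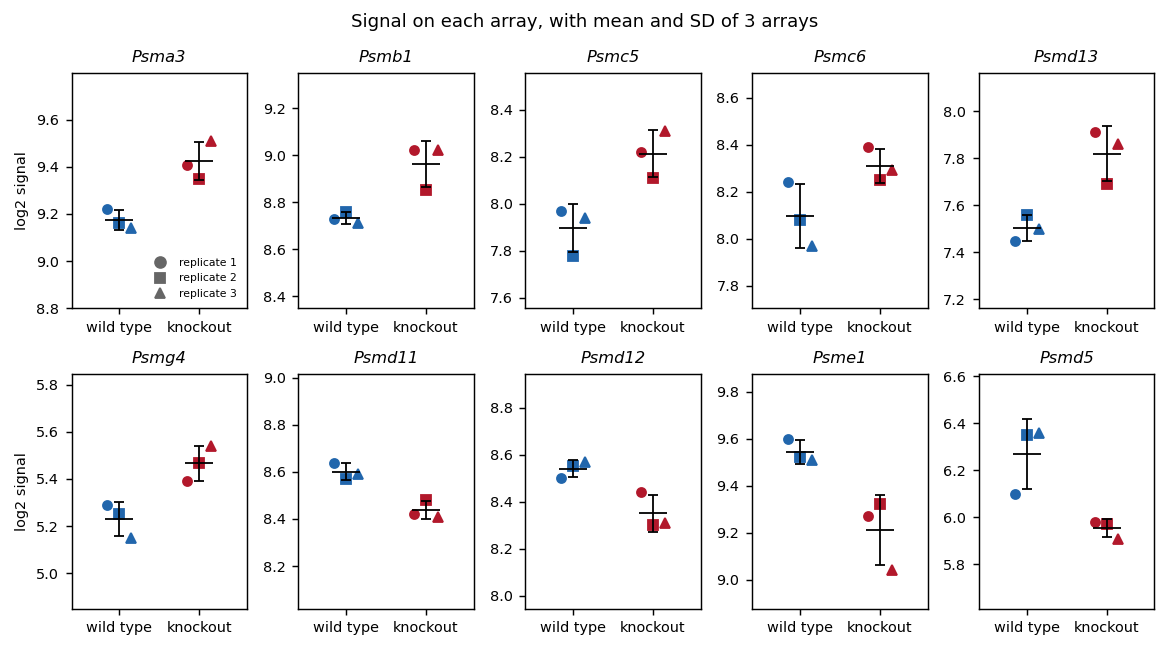
Log2 signal on each array for the 10 proteasome genes that did not overlap between genotypes and had an unadjusted limma p under 0.05, with the mean and SD of 3 arrays (black) and a vertical span of 1 in every panel. The first 6 genes are higher in the knockout and the last 4 lower, with differences from -0.33 to 0.32.

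In the 19S cap, 12 of 17 genes measured higher and 5 lower, with a median difference of 0.10. At an unadjusted p under 0.05, 3 were higher (17.6%) and 2 lower (11.8%), where named genes gave 2.50% and 8.97%, so that the lower share was near that of named genes. The 6 base ATPases, the motor that unfolds substrates, were all higher, with a median of 0.145, and 4 of them did not overlap between genotypes, where 4.64% of named genes were higher without overlap. The 8 lid genes had a median of 0.013, with 4 higher and 4 lower, and the median was -0.03 without wild-type replicate 2. As means per array relative to the wild-type mean, the ATPases lay at 0.22, 0.10 and 0.19 in the knockout against 0.09, -0.07 and -0.02 in the wild type. The lid lay at 0.04, -0.02 and 0.02 against 0.01, -0.02 and 0.00. The ATPase minus lid difference was 0.18, 0.12 and 0.17 in the knockout against 0.07, -0.05 and -0.03 in the wild type, so these groups did not overlap. The parts were divided after the values were seen, and their means carry no test. The 6 ATPases were all higher under each of the 16 alternative settings, quantile normalization and median centring included.

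Psmc5 measured the largest difference among the ATPases, with 8.22, 8.11 and 8.31 in the knockout against 7.97, 7.78 and 7.94 in the wild type. The difference was 0.32 (SE 0.08), or 1.25-fold, with an unadjusted p of 0.00519 and an adjusted p of 0.161 in limma. Psmc6 measured 8.39, 8.25 and 8.29 against 8.24, 8.08 and 7.97, 0.21 higher (SE 0.08, unadjusted p = 0.0368, adjusted p = 0.329 in limma). Its groups lay just apart, and the unadjusted p was 0.125 without knockout replicate 1. Psmc2 and Psmc4 did not overlap either, and both differed by 0.12, with unadjusted limma p of 0.0929 and 0.101. Psmc1 and Psmc3 differed by 0.10 and 0.17 and overlapped, while a second Psmc1 probe set measured 0.15 higher without overlap.

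The other base genes are scaffolds and a ubiquitin receptor. Psmd2 measured 9.55, 9.43 and 9.33 against 9.32, 9.32 and 9.36, and Psmd1 measured 9.32, 9.35 and 9.20 against 9.35, 9.48 and 9.45, with differences of 0.10 and -0.14. A second Psmd2 probe set, which lists the same accessions, differed by only 0.01 and overlapped. Psmd4, the ubiquitin receptor, measured 7.94, 7.63 and 7.92 against 7.81, 7.40 and 7.64, a difference of 0.21 (SE 0.13). None of these separated the genotypes.

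The lid held members that differed in opposite directions. Psmd13, a lid scaffold subunit, measured 7.91, 7.69 and 7.86 in the knockout against 7.45, 7.56 and 7.5 in the wild type, 0.32 higher (SE 0.08) or 1.25-fold, with an unadjusted p of 0.0042 and an adjusted p of 0.152 in limma. Psmd12, of the same scaffold, measured 8.44, 8.30 and 8.31 against 8.50, 8.55 and 8.57, a difference of -0.19 (SE 0.06, unadjusted p = 0.0188, adjusted p = 0.262 in limma). Psmd11 measured 8.42, 8.48 and 8.41 against 8.64, 8.57 and 8.59, a difference of -0.16 (SE 0.06, unadjusted p = 0.0214, adjusted p = 0.274 in limma). All 3 separated the genotypes without overlap. Of the 8 lid genes, 1 was thus higher (12.5%) and 2 lower (25%), against 4.64% and 14.1% of named genes. Psmd12 had an unadjusted p over 0.05 in limma in 5 of 16 alternatives (0.0616 with median centring, 0.0528 with quantile normalization, and 0.0705, 0.0554 and 0.0533 without knockout replicate 2, knockout replicate 3 and wild-type replicate 2; adjusted p = 0.201 to 0.554 over the 16). Psmd11 did in 3 (0.053 without an intensity trend, 0.0733 and 0.0569 without knockout replicates 1 and 3; adjusted p = 0.24 to 0.557 over the 16). Psmd14, the deubiquitinase of the lid, and its partner Psmd7 differed by -0.08 and -0.02 and overlapped, and after quantile normalization Psmd7 measured 0.03. Psmd3, Psmd6 and Psmd8 differed by 0.05, 0.15 and 0.04.

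Of the 5 genes of activators and the inhibitor, 3 were lower, where 62.7% of named genes were. Their median was -0.217 with all arrays and -0.14 without knockout replicate 3, and their means overlapped between genotypes. Psme1, which encodes PA28 alpha, had the lowest difference of all 48 genes. It measured 9.27, 9.32 and 9.04 in the knockout against 9.60, 9.52 and 9.51 in the wild type. The groups did not overlap, and the difference was -0.33 (SE 0.08), or 1.26-fold lower, with an unadjusted p of 0.00432 and an adjusted p of 0.152 in limma. In RefSeq no gene lay wholly between Psme1 and Psme2, and genes that overlap either of them were not counted. Psme2 encodes PA28 beta, the partner with which PA28 alpha forms a mixed ring. It measured 7.47, 7.37 and 7.26 against 7.16, 7.49 and 6.98, a difference of 0.16 (SE 0.13, adjusted p = 0.669 in limma), with overlapping genotypes. The difference between these partners was not tested. A further Psme2 probe set carries several symbols and was not used.

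PA28 gamma, a nuclear activator encoded by Psme3, measured 7.87, 7.92 and 7.67 against 7.91, 8.12 and 8.08, a difference of -0.22 (SE 0.09, unadjusted p = 0.0474, adjusted p = 0.359 in limma). Its genotypes overlapped, and the unadjusted p was 0.15 without knockout replicate 3. Psme4, the gene of PA200 with the brightest probe set of this class, measured 10.12, 9.95 and 9.90 against 9.96, 9.87 and 10.09, within the spread of the arrays. Psmf1, the gene of the inhibitor PI31, measured 6.52, 6.32 and 6.11 against 6.57, 6.61 and 6.50, a difference of -0.24 (SE 0.11, adjusted p = 0.393 in limma). Knockout replicate 3 was the lowest array for Psme1, Psme3 and Psmf1, and the mean of the 5 genes lay at -0.27 on it, against -0.01 and -0.09 on the other knockout arrays. Leukocyte markers averaged 6.36 to 6.60 in the knockout and 6.48 to 6.88 in the wild type. Of 10 such markers 9 were lower, where 62.7% of named genes were. Only 1 of them (C1qb) was lower at an unadjusted p under 0.05 in limma, where 8.97% of named genes were. The general leukocyte gene Ptprc was dim, from 4.51 to 5.0. The part of these markers in the Psme1 difference was not tested.

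Chaperones of the base and of the core lay on opposite sides of the wild type, in parts divided after the values were seen. Where 62.7% of named genes were lower, the 3 base chaperones, which hold the ATPases during assembly, all were, with a median of -0.197. As a mean they lay at -0.16, -0.23 and -0.25 in the knockout against 0.00, 0.03 and -0.03 in the wild type, without overlap. Psmd5 measured 5.98, 5.97 and 5.91 against 6.10, 6.35 and 6.36, a difference of -0.32 (SE 0.09), or 1.25-fold lower, with an unadjusted p of 0.0108 and an adjusted p of 0.215 in limma. Psmd9 and Psmd10, the latter known as gankyrin, differed by -0.13 and -0.20 and overlapped. Psmd5 alone of the 3 did not overlap, where 14.1% of named genes were lower without overlap. The direction of these 3 genes was the same under all 16 alternative settings.

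Where 36.3% of named genes were higher, the 4 core chaperones, which assemble the alpha ring, all were, with a median of 0.158. Their mean lay at 0.19, 0.07 and 0.17 in the knockout against 0.03, -0.01 and -0.01 in the wild type, again without overlap. Psmg4 measured 5.39, 5.47 and 5.54 against 5.29, 5.25 and 5.15, 0.24 higher (SE 0.09, unadjusted p = 0.0305, adjusted p = 0.309 in limma), and the unadjusted p was 0.0959 without knockout replicate 3. Psmg2 did not overlap and measured 0.17 higher (adjusted p = 0.373 in limma). Psmg1 and Psmg3 differed by 0.15 and 0.02 with overlap, and Psmg3 measured as low as -0.09 when an array was left out.

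**Figure D3:**
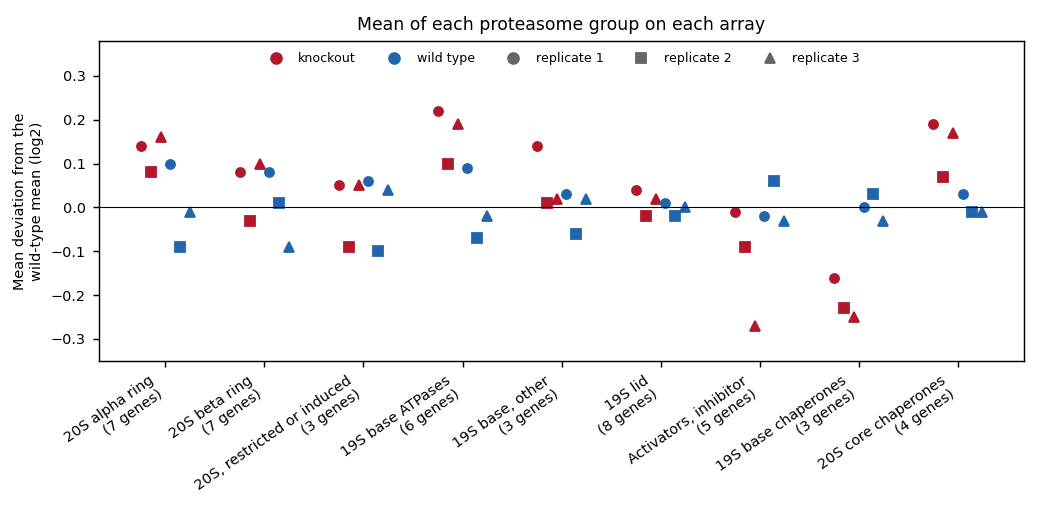
Mean deviation from the wild-type mean (log2) over the genes of each proteasome group, with 1 point per array, red for knockout and blue for wild type. Knockout and wild-type points do not overlap for the base ATPases (0.10 to 0.22 against -0.07 to 0.09), the base chaperones (-0.25 to -0.16 against -0.03 to 0.03) and the core chaperones (0.07 to 0.19 against -0.01 to 0.03), and they overlap for the other 6 groups.

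Set side by side per array, the classes divided less clearly than these parts. The mean of the 20S core lay at 0.10, 0.00 and 0.11 in the knockout against 0.08, -0.05 and -0.03 in the wild type. The 19S cap lay at 0.12, 0.03 and 0.08 against 0.04, -0.04 and 0.00. Activators and chaperones lay at 0.02, -0.07 and -0.12 against 0.00, 0.03 and -0.02. Each class thus overlapped between genotypes, and the difference of core minus cap stayed between -0.03 and 0.04. The difference of the cap minus the activators and chaperones was 0.10, 0.10 and 0.20 in the knockout against 0.05, -0.07 and 0.02 in the wild type, without overlap. The same difference for the core overlapped, at 0.08, 0.07 and 0.23 against 0.09, -0.08 and -0.01.

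The 2 genes related by name did not separate the genotypes. Psmc3ip, a meiotic recombination factor named for binding an ATPase, differed by 0.00, and Psme3ip1, which encodes a binding partner of PA28 gamma, differed by 0.10 with overlap.

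Partners of the proteasome with other symbols were read from a list of ubiquitin-proteasome genes, of which 31 had a named probe set. None passed the adjusted threshold. At an unadjusted p under 0.05, 4 were higher (12.9%) and 3 lower (9.68%), against 2.50% and 8.97% of named genes, and the median was -0.027. With age as a covariate 5 were lower, where named genes gave 8.16%. Values did not overlap between genotypes at 6 higher genes (19.4%) and 7 lower genes (22.6%), against 4.64% and 14.1% of named genes. Trim63 (0.08), Ecpas (-0.06) and Nedd4 (-0.10) were among them, each with an unadjusted limma p over 0.05.

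Assembly and cap partners held 3 of the 4 higher genes. These were 3 of the 7 genes in that part of the list (42.9%), against 2.50% of named genes. Sem1, a small lid subunit, measured 9.17, 9.06 and 9.30 in the knockout against 8.96, 8.81 and 8.81 in the wild type, 0.32 higher (SE 0.08, unadjusted p = 0.00486, adjusted p = 0.157 in limma). Pomp, the maturation factor of the core, measured 8.64, 8.60 and 8.84 against 8.54, 8.28 and 8.36, 0.30 higher (SE 0.09, unadjusted p = 0.0139, adjusted p = 0.239 in limma). Txnl1, a thioredoxin-like protein bound to the cap, measured 7.66, 7.61 and 7.64 against 7.44, 7.37 and 7.30, 0.27 higher (SE 0.07, unadjusted p = 0.00404, adjusted p = 0.15 in limma). None of the 3 overlapped between genotypes, where 4.64% of named genes were higher without overlap. The deubiquitinases of the cap, Usp14 and Uchl5, differed by 0.05 and 0.00.

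Genes of the factors that control proteasome transcription did not separate. Nfe2l1, the gene of NRF1, measured 9.26, 9.22 and 9.30 against 9.33, 9.25 and 9.28, and Nfe2l2, the gene of NRF2, differed by -0.05. Ngly1, whose product removes the sugars of NRF1 during its activation, differed by -0.32 (SE 0.15) with overlap. These are transcript signals and do not measure the activity of the factors.

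Ubiquitin ligases of muscle differed in both directions. Trim54, the gene of a MuRF protein at the sarcomere, measured 9.62, 9.59 and 9.77 in the knockout against 9.29, 9.37 and 9.37 in the wild type, 0.32 higher (SE 0.07, unadjusted p = 0.00168, adjusted p = 0.113 in limma). The atrophy ligases Fbxo32 and Trim63 differed by 0.13 and 0.08. Fbxo40, a muscle F-box gene, measured 9.22, 9.25 and 9.27 against 9.5, 9.60 and 9.48, a difference of -0.28 (SE 0.06, unadjusted p = 0.0014, adjusted p = 0.108 in limma). Fbxo30 and Mdm2 differed by -0.25 and -0.37, and these lower genes did not overlap between genotypes. Among the shuttles that carry tagged proteins to the proteasome, Rad23b measured 0.15 higher and Ubqln1 and Nploc4 -0.12 and -0.10, without overlap but with unadjusted limma p of 0.052, 0.123 and 0.138.

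**Figure D4:**
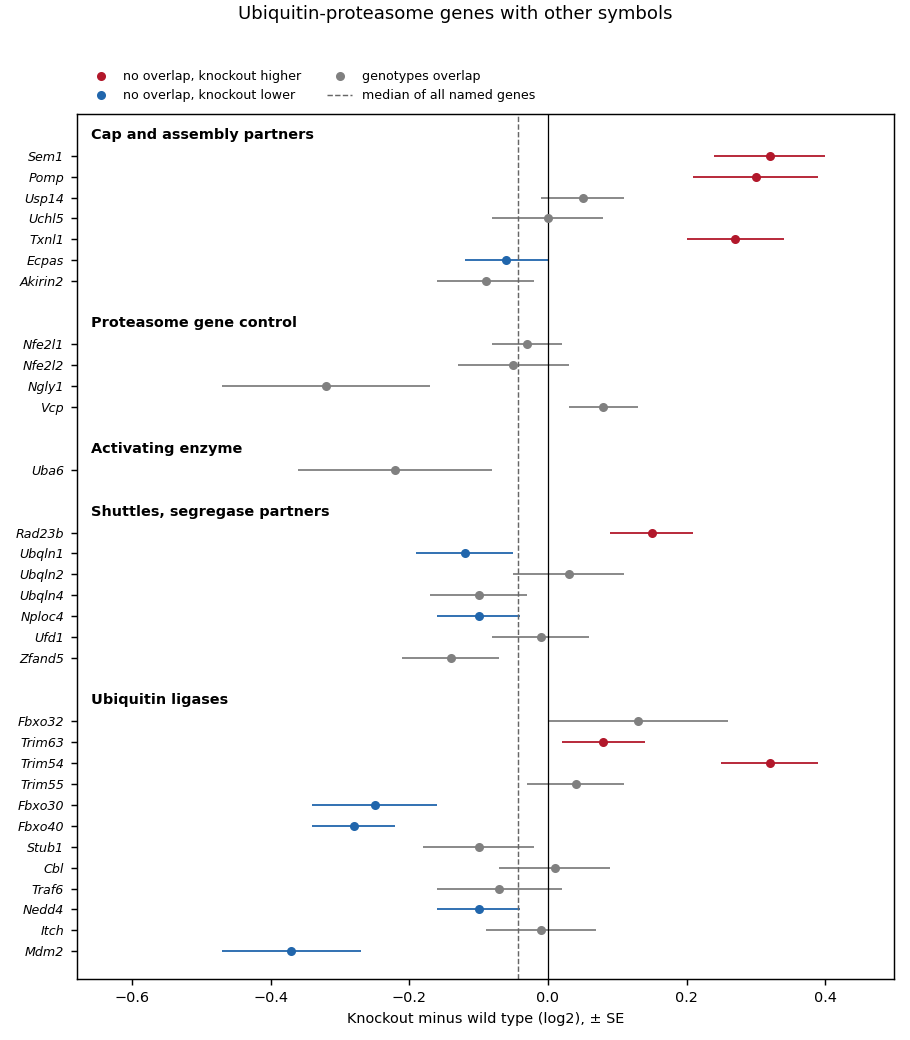
Knockout minus wild type difference in log2 signal (points, with the standard error of the limma fit) of 31 ubiquitin-proteasome genes outside the Psm symbols; colours mark genes without overlap between genotypes and the dashed line the median of named genes, at -0.043. Sem1, Pomp, Txnl1 and Trim54 lie between 0.27 and 0.32, and Mdm2 lies lowest at -0.37.

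Across the processing settings the classes kept their order of sign. The median of the core ranged from 0.02 to 0.12 and that of the cap from 0.07 to 0.14, while that of the activators and chaperones ranged from -0.13 to -0.03, with -0.10 and -0.09 without knockout replicates 1 and 3 against -0.058 with all arrays. Psma3, Psmb1, Psmc5, Psmd13, Psme1 and Psmd5 had an unadjusted p under 0.05 in each of the 16 alternatives. Their adjusted p reached 0.0595 at the lowest, for Psme1, and 0.499 at the highest.

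**Figure D5:**
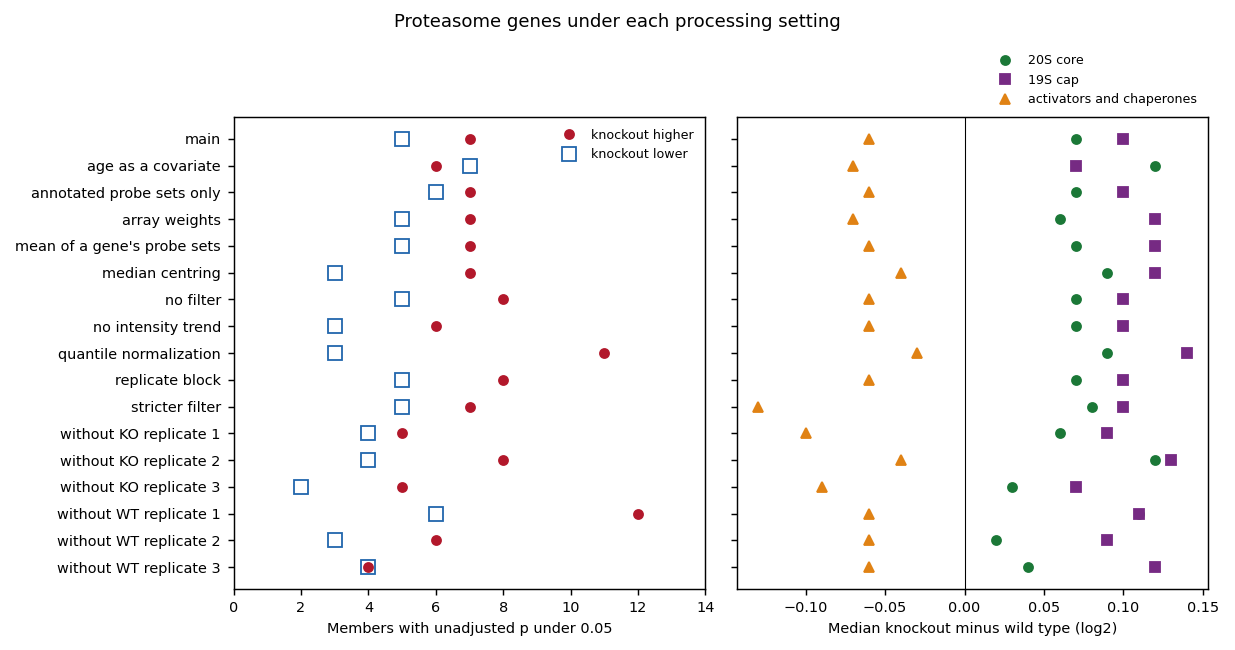
Left, the number of the proteasome genes with an unadjusted limma p under 0.05 (filled circles, knockout higher; open squares, knockout lower) in the main test and under 16 alternatives; right, the median difference (log2) of each class. The number of higher genes runs from 4 to 12 and that of lower genes from 2 to 7, and the medians of the core and the cap stay above 0 in all 17 settings.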

How the data were processed

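A single table was deposited by the authors, giving a log2 signal for 35556 probe sets on each array. Per the labels' protocols, cDNA was labelled with biotin from 100 ng of total RNA. The submitters' processing notes name MAS5, without role or version. The sources used here give neither summarization nor scaling, and the log2 scale was read from the range, 0.46 to 13.72. The number of arrays limits the precision.

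Values were used as deposited. limma 3.58.1 in R 4.3.3 (lmFit, eBayes with an intensity trend) compared knockout with wild type, two-sided, over probe sets with a mean at or above the 30th percentile. P-values were adjusted by Benjamini-Hochberg over 24898 probe sets, and the fit was tested on simulated data. All 48 members matched RefSeq by gene identifier. The members, lists and classes were chosen with earlier results of these data known, and the parts of each class were divided after the values were seen. Values on each array are given for members without overlap and with an unadjusted p under 0.05, for the 2 brightest of each class, and for others chosen after their values were seen. The labels do not say whether replicate numbers pair the arrays. Deviations from the genotype mean correlated at -0.0595, 0.0213 and -0.0568 between arrays of the same number. Between arrays of different numbers the correlations ran from -0.0141 to 0.0731. With 3 arrays per genotype, these values cannot show whether the numbers pair. Alternatives changed the scaling, filter, variance model, array weights, age, block, probe sets of a gene, probe sets tested and arrays.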

Additional observations from a re-analysis of the deposited data

How the results depend on the processing

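No proteasome gene passed the adjusted threshold in limma under any of the 16 alternatives, also when only annotated probe sets were tested, where 361 of 17934 passed. The main test gave 7 higher and 5 lower genes at an unadjusted p under 0.05. Quantile normalization gave 11 higher and 3 lower, and median centring and the fit without an intensity trend each gave 3 lower. Leaving out arrays gave 4 to 12 higher and 2 to 6 lower, where named genes gave 1.57% to 3.82% and 5.36% to 9.14%. The cause of these shifts was not tested. With the replicate block, whose numbers are not labelled as pairs, the counts were 8 and 5, and it changed no adjusted call among proteasome genes. It ended that of Cavin4 (adjusted p 0.0754 in limma, against 0.012), the targeted gene. Adding age as a covariate gave 6 higher and 7 lower proteasome genes, and 5 lower pathway genes outside the prefix. Under the stricter filter the median of activators and chaperones was -0.13, since Psmg3 was no longer tested.

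Genes that changed sign differed by -0.05 to 0.12 in the main test, and some lay further from 0 in an alternative. With age as a covariate Psma1, Psmb11 and Psme4 measured -0.02, 0.12 and -0.07. With array weights Psmb2, Psmb11 and Psmd7 measured -0.01, 0.02 and 0.01, and quantile normalization gave Psmd7 0.03. The mean of its probe sets gave Psma5 -0.08. With arrays left out, Psma1 ranged from -0.03 to 0.04, Psma5 from -0.28 to 0.25, Psma8 from -0.02 to 0.17, Psmb2 from -0.04 to 0.04, Psmb3 from -0.02 to 0.17, Psmb10 from -0.13 to 0.01, Psmb11 from -0.16 to 0.12, Psmd7 from -0.07 to 0.03, Psmd8 from -0.02 to 0.11, Psme4 from -0.05 to 0.07 and Psmg3 from -0.09 to 0.19. Which Psma5 probe set had the higher mean changed with the arrays, so its range mixes 2 probe sets. Without a reported scanner background, how far background compresses the dim genes Psma8, Psmb11 and Psmg3 is not known.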
